A study of Mus musculus with 6 samples.

Results

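Kinetochore, condensin and spindle assembly genes were compared between CT26.mMR1 cells and M8, a mutant derived from them. CT26 is a mouse colorectal tumor line, and both groups overexpressed mouse MR1, the molecule that presents metabolites to MAIT cells. M8 was obtained by mutagenesis with ENU, an alkylating agent, and cloned by limiting dilution, so that the M8 samples represent 1 clone. The paper chose it for a stronger reporter T cell response and for raised surface MR1. The titles of all parental and M8 samples carry the label cl9, which they do not explain. Neither group received any other treatment according to the labels. Each line was sequenced as 3 samples, and expression was deposited as FPKM, a read count scaled to transcript length and to library size. The 55 genes were chosen by symbol for their known role in chromosome segregation. All 55 were found among the 24346 gene symbols. With 26 kinetochore genes, 7 condensin genes, 12 spindle and cytokinesis genes, 9 genes of the spindle checkpoint, sister cohesion and the chromosomal passenger complex, and Top2a, they cover steps from chromosome condensation to cytokinesis, and the mitotic kinases and most kinesins are not among them.

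At mitosis, condensin folds each chromosome into a compact body, and the kinetochore is built on the centromere to hold spindle microtubules. The spindle checkpoint delays separase until the kinetochores are attached, and the central spindle then directs cytokinesis. Most of these genes are transcribed in the late part of the cell cycle, so that their mRNA level in a culture is known to follow the share of cells in that phase. In bulk RNA, fewer cells of a given phase and less RNA per cell cannot be told apart.

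The depth estimated from the steps of low FPKM values was 23.8 to 26.9 M reads in the parental samples and 19.4 to 22.0 M reads in M8 (M stands for mega), so each M8 sample was shallower than each parental sample. On the log2(FPKM + 1) scale, samples of a line correlated at r = 0.994 to 0.995 (Pearson) and samples of different lines at r = 0.989 to 0.992, taken over genes, which do not count as replicates. The labelled tissue was checked with 10 markers of colon epithelium. Epcam, Cdh1, Krt19 and Cdx2 were listed at 0 in all 6 samples, Krt8, Cdx1, Vil1 and Muc2 did not exceed 0.12 FPKM, and Krt18 was detected at 24.5 to 38.4 FPKM. Krt20 was detected at 15.1, 17.2 and 19.8 FPKM in the parental samples and was lower in M8 at 12.7, 12.3 and 10.8 FPKM (adjusted p = 0.00438). Among 6 mesenchymal markers, Vim was at 1751 to 2137 FPKM and was not called. Fn1 was at 598, 642 and 627 FPKM in the parental samples and was lower in M8 at 468, 499 and 498 FPKM (log2 fold change -0.35, adjusted p = 0.000917), and Cdh2 was higher (0.13, adjusted p = 0.055). The part of these markers in the differences below was not tested. The summed FPKM of 6 leukocyte markers was 0.213 to 0.604 in the parental samples and 0.144 to 0.587 in M8, and that of 4 endothelial markers stayed below 0.09 in all samples.

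Most of the 55 genes were expressed at a higher level in M8. The limma test, in which a gene was called at an adjusted p below 0.1, found 39 genes higher, 1 lower (Cenpk) and 15 without a call. The share called higher was 70.9%, while 21.2% of the 10597 genes tested were called higher, and 16.5% were called lower. The genes were listed with earlier results of these data known, so these shares are a description. The differences were small. The median log2 fold change was 0.25 for the 55 genes and 0.0069 for all genes tested, and the individual values ranged from -0.23 for Cenpk to 0.49 for Cenpa. No member was called higher with an increase of at least 1.5-fold, while 0.396% of all tested genes were. In 39 genes the lowest M8 value exceeded the highest parental value, a separation seen in 24.8% of all genes tested. An exact permutation test over the samples cannot go below p = 0.1 with 3 samples against 3, and 41 members were at this value. Of these, 39 lay above and 2 lay below the parental values in all M8 samples. Among all genes tested, 2624 lay above and 2161 lay below in the same way. The balance of calls over all genes depended on the scaling. Among all called genes, 56.3% were higher in M8, but only 42.9% after conversion to TPM and 46.2% after upper-quartile scaling. Under these scalings 33 and 36 of the 55 members were still called higher, against 15.6% and 17.4% of all genes tested.

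**Figure D1:**
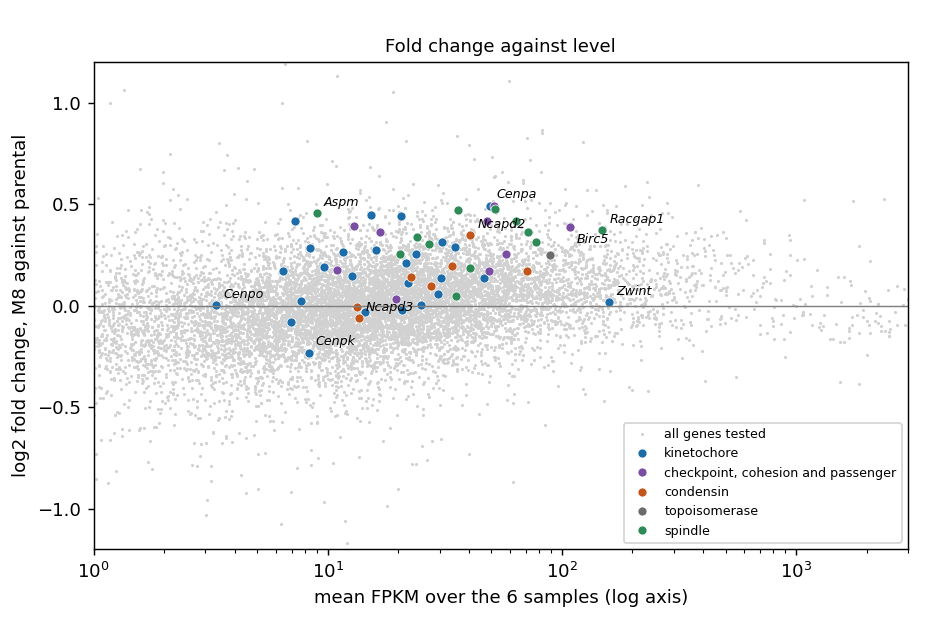
Fold change of M8 against parental on the log2 scale (vertical axis) plotted against the mean FPKM of the 6 samples (horizontal log axis) for all genes tested (grey) and the 55 genes colored by class. The colored points lie mostly above 0 at every level from 3.34 FPKM (Cenpo) to 158 FPKM (Zwint), and 16 other genes with a log2 fold change beyond 1.2 in either direction are outside the plot. The horizontal axis ends below the highest mean (6336 FPKM), so the most abundant genes are also outside.

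The classes were described side by side. Among the 12 spindle and cytokinesis genes, 11 were higher in M8, and the median log2 fold change was 0.35. Of the 9 checkpoint, cohesion and passenger genes, 8 were higher, with a median of 0.37. Of the 26 kinetochore genes, 15 were higher and 1 was lower, with a median of 0.16, and 10 were higher without M8 replicate 2. Of the 7 condensin genes, 4 were higher, with a median of 0.14, and after quantile normalization 2 were higher, with a median of 0.087. Within each of these classes, the median deviation from the parental mean was higher in every M8 sample than in every parental sample. In spindle genes this median was 0.39, 0.34 and 0.34 in the M8 samples against -0.04 to 0.05 in the parental samples. In kinetochore genes it was 0.18, 0.16 and 0.16 against -0.01 to 0.01. The differences between the classes were not tested.

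**Figure D2:**
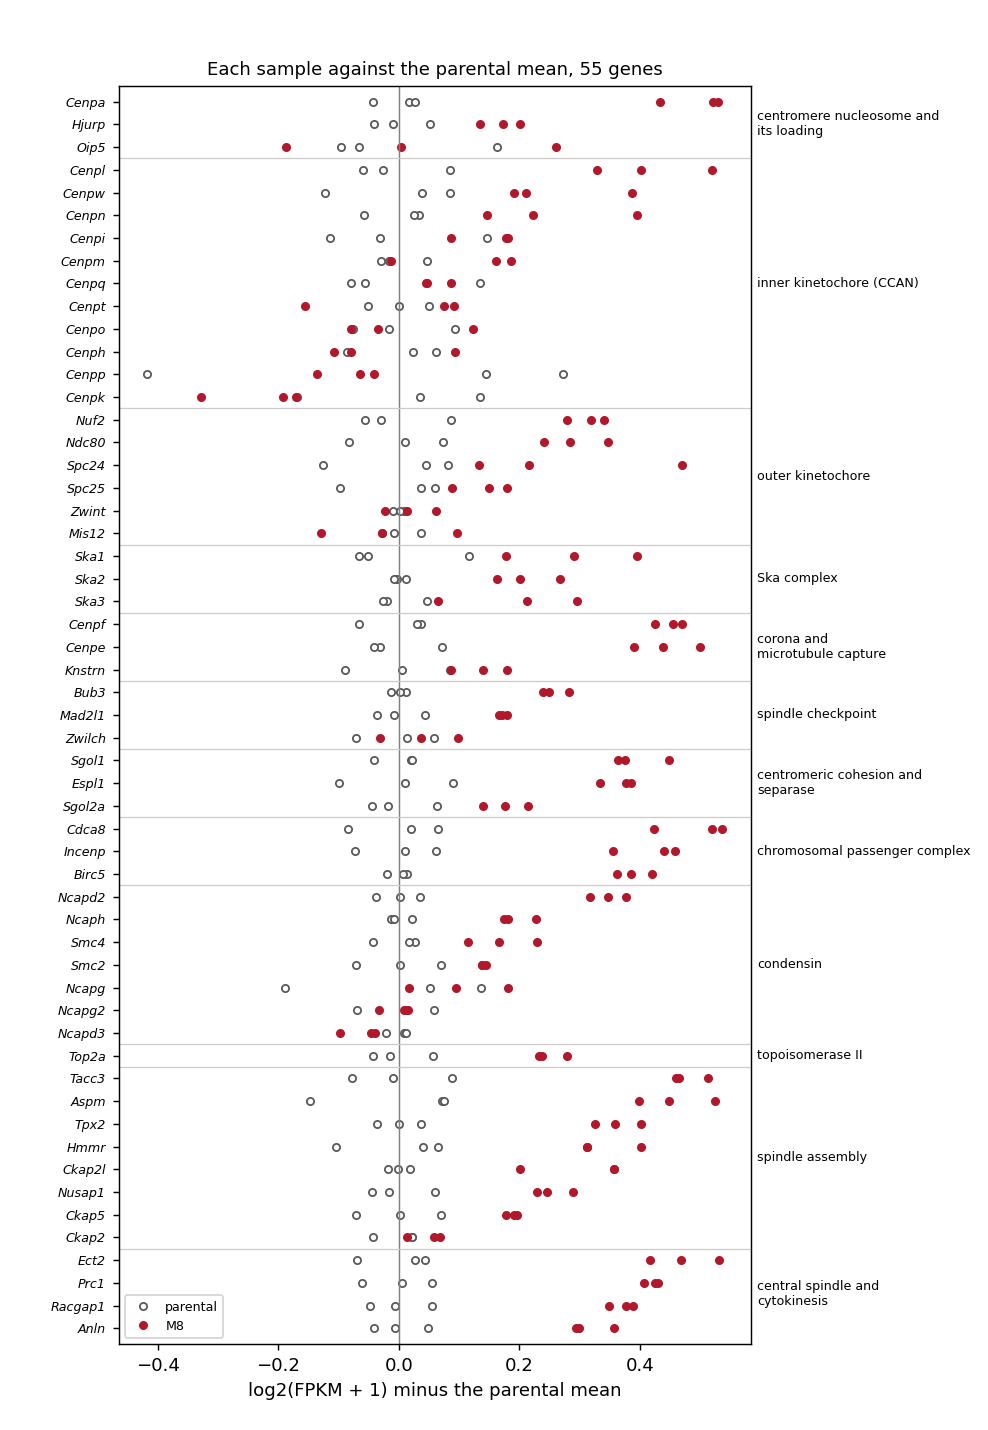
Each sample's log2(FPKM + 1) minus the mean of the 3 parental samples (horizontal axis) for the 55 genes (rows), grouped by role; open circles are parental samples and filled circles are M8 samples. The M8 samples stand clear of the parental samples in 39 genes to the right, while they overlap in most genes of the inner kinetochore.

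The promoters of these genes were compared because late cell cycle genes are known for a pair of elements near the start site, the CCAAT box and the cell cycle homology region (CHR). RefSeq sequences on GRCm38.p6 from 250 bases before to 50 bases after the start site were available for 49 of the 55 genes. Ska1, Tpx2, Incenp, Smc4, Spc24 and Zwilch had no entry. CCAAT was searched on both strands, and so were TTTGAA and TTCGAA for the CHR. The windows shown are those of the gene with the largest log2 fold change on the log2(FPKM + 1) scale among the kinetochore, passenger complex, spindle assembly, cytokinesis and condensin genes, and that of Ncapd3, the condensin II counterpart of Ncapd2. Capitals mark matches to these letters on either strand. They are Cenpa at chr5:30666636-30666935 (plus strand), Cdca8 at chr4:124936868-124937167 (minus), Tacc3 at chr5:33657878-33658177 (plus), the first of 2 listed starts of Ect2 at chr3:27153829-27154128 (minus), Ncapd2 at chr6:125191537-125191836 (minus) and the first of 2 listed starts of Ncapd3 at chr9:27029915-27030214 (plus).
Cenpa: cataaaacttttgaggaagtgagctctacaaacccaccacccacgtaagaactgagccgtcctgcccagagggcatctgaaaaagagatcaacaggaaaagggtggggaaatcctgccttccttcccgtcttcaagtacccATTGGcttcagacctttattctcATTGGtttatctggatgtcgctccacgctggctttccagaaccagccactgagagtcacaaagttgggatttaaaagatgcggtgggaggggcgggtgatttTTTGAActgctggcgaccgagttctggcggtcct
Cdca8: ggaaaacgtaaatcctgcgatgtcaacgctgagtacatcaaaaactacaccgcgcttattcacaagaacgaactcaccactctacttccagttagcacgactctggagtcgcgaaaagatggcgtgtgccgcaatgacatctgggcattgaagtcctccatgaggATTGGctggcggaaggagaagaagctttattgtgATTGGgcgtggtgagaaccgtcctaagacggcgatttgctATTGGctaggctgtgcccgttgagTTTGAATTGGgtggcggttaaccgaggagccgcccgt
Tacc3: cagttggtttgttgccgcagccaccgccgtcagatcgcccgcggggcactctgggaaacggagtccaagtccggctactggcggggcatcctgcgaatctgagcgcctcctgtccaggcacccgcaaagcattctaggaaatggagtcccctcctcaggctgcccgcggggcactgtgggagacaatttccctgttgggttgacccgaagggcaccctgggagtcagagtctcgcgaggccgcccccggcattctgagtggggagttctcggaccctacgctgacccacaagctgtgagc
Ect2: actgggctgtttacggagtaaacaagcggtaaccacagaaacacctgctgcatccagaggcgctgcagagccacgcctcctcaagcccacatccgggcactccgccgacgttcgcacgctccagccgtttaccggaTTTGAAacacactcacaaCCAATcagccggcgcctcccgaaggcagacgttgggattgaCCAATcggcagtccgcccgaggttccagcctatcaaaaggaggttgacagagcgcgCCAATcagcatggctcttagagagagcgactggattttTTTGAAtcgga
Ncapd2: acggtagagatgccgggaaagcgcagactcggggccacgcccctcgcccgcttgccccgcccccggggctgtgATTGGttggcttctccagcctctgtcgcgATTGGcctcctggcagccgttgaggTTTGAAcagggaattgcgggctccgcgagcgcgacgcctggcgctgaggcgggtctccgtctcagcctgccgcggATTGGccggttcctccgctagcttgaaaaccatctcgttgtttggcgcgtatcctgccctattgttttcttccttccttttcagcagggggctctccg
Ncapd3: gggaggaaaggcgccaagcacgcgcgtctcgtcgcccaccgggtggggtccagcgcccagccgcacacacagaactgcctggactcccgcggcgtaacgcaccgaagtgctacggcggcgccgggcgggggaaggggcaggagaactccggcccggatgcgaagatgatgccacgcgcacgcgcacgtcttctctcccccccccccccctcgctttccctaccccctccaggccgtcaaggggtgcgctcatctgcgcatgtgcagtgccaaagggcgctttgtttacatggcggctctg

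Both elements were present in the Cenpa, Cdca8, Ect2 and Ncapd2 windows, and neither was present in those of Tacc3 and in the first of Ncapd3. The second Ncapd3 window, which is not shown, held a CHR match at position -249, so that Ncapd3 is counted below among the genes with these letters. In Cenpa, 2 CCAAT boxes in the reverse orientation began at positions -109 and -86, counted from 0 at the start site, and a CHR match began at position 16. Cdca8 carried 4 reverse CCAAT boxes, and the most downstream of them overlapped its CHR match by 1 base. In Ncapd2, the CHR match began at position -123. Aspm, a spindle gene with a log2 fold change close to that of Tacc3, carried both elements.

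Across the members, CCAAT was found in 34 of the 49 genes (69.4%), the CHR letters in 30 (61.2%) and both in 25 (51%). Of all 27025 genes with a listed promoter, 41.1% had CCAAT, 21.7% had the CHR letters and 8.61% had both, and among the 8167 of them that were tested here the shares were 43.7%, 16.1% and 6.83%. A gene was counted where any of its listed windows held the match. In the first listed window of each gene, the median position was -11.5 for 36 CHR matches and -76 for 74 CCAAT matches. Of the 30 genes with the CHR letters, 24 were called higher in M8, and their median log2 fold change was 0.28. Of the 19 without them, 10 were called higher, with a median of 0.15. Of all genes tested, 21.2% were called higher. For CCAAT the counts were 24 of 34 genes with it (median 0.25) and 10 of 15 without it (median 0.19). In the inner kinetochore, 4 of 11 genes had the CHR letters, compared with 9 of 11 spindle genes and 5 of 6 condensin genes. An E2F-type site, searched as TTCCCGC and TTGGCGC after the values had been seen, was found in 14 of the 49 genes (28.6%), in 7.79% of all genes with a promoter and in 15.1% of those tested. Of these 14 genes 7 were higher, and of the 35 without the site 27 were higher. Its reverse form may overlap CCAAT. Shares called higher among all tested genes with each element were not computed, and the differences were not tested. The counts describe letters in a window and not binding.

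Cenpa encodes the histone H3 variant that marks the centromere. It was expressed at 41.1, 41.4 and 39.4 FPKM in the parental samples and at 59.0, 58.7 and 55.2 FPKM in M8. The log2 fold change was 0.49 ± 0.044 (SE, n = 3 per line; adjusted p = 0.000206), with no overlap between the lines. This value and those of Cdca8, Tacc3, Ect2 and Aspm lay close together, and their order changed with the pseudocount, with quantile normalization and when single replicates were left out. The Cenpa chaperone Hjurp rose from 5.99 ± 0.23 to 6.85 ± 0.18 FPKM (SD, n = 3), with a log2 fold change of 0.17 and an adjusted p of 0.0622. This call was lost when parental replicate 1 or 2 or any of the M8 replicates was left out (adjusted p = 0.103 to 0.158). Oip5, a subunit of the Mis18 complex that licenses deposition of the variant, was measured at 7.56 ± 0.86 and 7.76 ± 1.37 FPKM and was not called (log2 fold change 0.026, 95% interval -0.23 to 0.28). Its exons overlap those of Nusap1, another member, on the opposite strand.

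The inner kinetochore, or constitutive centromere-associated network, binds this nucleosome throughout the cell cycle. Of its 11 members, Cenpl, Cenpn and Cenpw were higher, Cenpk was lower, and Cenph, Cenpi, Cenpm, Cenpo, Cenpp, Cenpq and Cenpt were not called. The 3 called higher were 27.3% of these members, close to the 21.2% of all genes tested. Cenpl, which pairs with Cenpn, had the largest fold change of the network. Its values were 6.49, 5.77 and 5.93 FPKM in the parental samples and 7.87, 8.33 and 9.12 FPKM in M8 (log2 fold change 0.42, adjusted p = 0.00309). Cenpn rose from 21.5 ± 0.78 to 25.9 ± 2.4 FPKM (log2 fold change 0.26, adjusted p = 0.0188). Cenpw, the histone-fold partner of Cenpt, rose from 10.5 ± 0.85 to 12.8 ± 1.05 FPKM (log2 fold change 0.26, adjusted p = 0.0273). Cenpt itself was at 24.1, 25.9 and 25.0 FPKM in the parental samples and at 22.4, 26.7 and 26.4 FPKM in M8, with overlapping groups and a 95% interval of -0.15 to 0.16 around a log2 fold change of 0.004. The exons of Cenpt overlap those of Tsnaxip1 on the opposite strand.

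Cenpk, a subunit of the Cenph, Cenpi, Cenpk and Cenpm complex, was the only member called lower. It was at 9.97, 7.88 and 9.24 FPKM in the parental samples and at 6.96, 7.87 and 7.75 FPKM in M8. Parental replicate 2 and M8 replicate 2 were nearly equal. The log2 fold change was -0.23 ± 0.084 (adjusted p = 0.0682), and the call was lost without parental replicate 1 or 3 or M8 replicate 1 or 3 (adjusted p = 0.107 to 0.211). The lowest of these values corresponded to about 169 reads. The exons of Cenpk overlap those of Ppwd1 on the opposite strand. The partners Cenph, Cenpi and Cenpm had log2 fold changes of -0.03, 0.15 and 0.11. Cenpi was called higher without parental replicate 1 (log2 fold change 0.22, adjusted p = 0.0277), and Cenpm without M8 replicate 3 (0.17, adjusted p = 0.0518). Among the Cenpo, Cenpp and Cenpq subunits, the log2 fold changes were 0.0024, -0.08 and 0.06. Cenpp was the least precisely measured member. It was at 7.92, 8.75 and 5.04 FPKM in the parental samples, a coefficient of variation of 26.9%, and at 6.71, 6.34 and 6.84 FPKM in M8. Without parental replicate 3 it was called lower (log2 fold change -0.29, adjusted p = 0.0194). Cenpq was called higher without parental replicate 1 (0.13, adjusted p = 0.0676).

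At the outer kinetochore, the 4 subunits of the Ndc80 complex, the main microtubule receptor, were higher in M8. Nuf2 was at 26.2, 29.1 and 26.7 FPKM in the parental samples and at 34.3, 33.4 and 34.8 FPKM in M8 (log2 fold change 0.31, adjusted p = 0.00238). Its coiled-coil partner Ndc80 was at 29.5, 33.0 and 31.6 FPKM against 37.2, 38.4 and 40.2 FPKM (0.29, adjusted p = 0.00397). The ratio of Ndc80 to Nuf2 was 1.15 ± 0.029 in the parental samples and 1.13 ± 0.038 in M8, and these overlapped (exact permutation p = 0.6). Spc24 and Spc25, which tether the complex to the inner kinetochore, had log2 fold changes of 0.27 (adjusted p = 0.0478) and 0.14 (adjusted p = 0.0726). The call of Spc24 was lost without parental replicate 1 or M8 replicate 2 (adjusted p = 0.126 and 0.139). That of Spc25 was lost without parental replicate 1 or M8 replicate 2 or 3 (adjusted p = 0.169 to 0.191), and after quantile normalization its log2 fold change was 0.069 (adjusted p = 0.337).

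Mis12 and Zwint were not called. Mis12, the name-giving subunit of the complex that carries Ndc80, was at 20.4, 21.4 and 20.7 FPKM in the parental samples and 18.9, 22.3 and 20.4 FPKM in M8 (log2 fold change -0.02, 95% interval -0.16 to 0.12). Zwint, a binding partner of the scaffold Knl1, was nearly equal in the lines, at 157 ± 0.99 and 159 ± 4.7 FPKM (log2 fold change 0.017, 95% interval -0.067 to 0.10). The other Mis12 complex genes, which are not among the 55 and were picked once the values were known, had log2 fold changes of 0.13 (Dsn1, adjusted p = 0.164), 0.26 (Nsl1, adjusted p = 0.0348) and 0.38 (Pmf1, adjusted p = 0.00102). The exons of Mis12 overlap those of Derl2 on the opposite strand.

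The 3 genes of the Ska complex, which follows depolymerizing microtubule ends, were higher in M8. Ska1 was at 7.18, 7.11 and 8.20 FPKM in the parental samples and at 9.37, 10.2 and 8.59 FPKM in M8 (log2 fold change 0.29, adjusted p = 0.0209). Ska2 rose from 19.8 ± 0.15 to 23.1 ± 0.89 FPKM (0.21, adjusted p = 0.0094). Ska3 rose from 8.89 ± 0.27 to 10.3 ± 0.91 FPKM (0.19, adjusted p = 0.0627), a call that was lost without parental replicate 2 or 3 or M8 replicate 1 or 2 (adjusted p = 0.125 to 0.212). The ratio of Ska1 to Ska3 overlapped between the lines (exact permutation p = 0.3).

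The 3 genes of the kinetochore corona and microtubule capture were called higher, with log2 fold changes of 0.45, 0.44 and 0.13. Cenpf, a large coiled-coil protein of the corona, was at 13.2, 13.1 and 12.2 FPKM in the parental samples and at 18.1, 17.6 and 17.9 FPKM in M8 (log2 fold change 0.45 ± 0.05, adjusted p = 0.00055). Cenpe, the kinesin that carries chromosomes to the spindle equator, was at 18.2, 16.9 and 16.8 FPKM against 24.9, 23.8 and 23.0 FPKM (0.44 ± 0.052, adjusted p = 0.000693). Neither gene overlapped between the lines. Knstrn, the small partner of astrin, was at 29.1 ± 1.83 and 32.0 ± 1.08 FPKM (0.13, adjusted p = 0.0913), and its call was lost without parental replicate 1 or 3 or any of the M8 replicates (adjusted p = 0.112 to 0.251) and after quantile normalization (0.09, adjusted p = 0.268).

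Of the 3 checkpoint genes, Bub3 and Mad2l1 were higher and Zwilch was not called. Bub3, the adaptor that brings checkpoint kinases to the kinetochore, was at 52.0, 52.9 and 52.5 FPKM in the parental samples and at 62.5, 64.0 and 62.1 FPKM in M8 (log2 fold change 0.26 ± 0.037, adjusted p = 0.00167). Mad2l1, the inhibitor of the anaphase-promoting complex, rose from 45.7 ± 1.29 to 51.6 ± 0.22 FPKM (0.17, adjusted p = 0.012), a call lost after quantile normalization (0.098, adjusted p = 0.106). Zwilch, of the complex that recruits dynein, overlapped between the lines at 18.2, 19.4 and 20.04 FPKM and 20.6, 19.7 and 18.8 FPKM (0.034, 95% interval -0.088 to 0.16).

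The genes that protect and cleave centromeric cohesion were all 3 higher. Sgol1, now named Sgo1, encodes a shugoshin that shields cohesin in mitosis. It was at 10.7, 11.1 and 11.2 FPKM in the parental samples and at 14.5, 15.3 and 14.4 FPKM in M8 (log2 fold change 0.40, adjusted p = 0.000979). Its paralog Sgol2a, known for its role in meiosis, rose from 10.2 ± 0.44 to 11.7 ± 0.33 FPKM (0.18, adjusted p = 0.0367), which was lost without M8 replicate 2 (adjusted p = 0.119). The ratio of the paralogs was 1.07 ± 0.073 in the parental samples and 1.26 ± 0.016 in M8, without overlap, at the smallest exact permutation p of 0.1 (0.24 after Benjamini-Hochberg adjustment over 12 ratios). Espl1, the separase that cuts cohesin, rose from 14.4 ± 1.0 to 18.8 ± 0.37 FPKM (0.37, adjusted p = 0.00225).

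The chromosomal passenger complex places the Aurora B kinase at centromeres, and its 3 non-kinase genes were higher in M8. Cdca8, or borealin, was at 39.8, 42.8 and 44.2 FPKM in the parental samples and at 61.7, 61.0 and 56.9 FPKM in M8 (log2 fold change 0.49 ± 0.052, adjusted p = 0.0004). Its promoter is shown above with both elements, while that of Birc5 held neither and Incenp had no promoter entry. The scaffold Incenp was at 38.6, 40.9 and 42.5 FPKM against 56.2, 55.5 and 52.3 FPKM (0.42 ± 0.049, adjusted p = 0.000693). Birc5, or survivin, was at 94.2, 93.7 and 92.0 FPKM against 125, 122 and 120.2 FPKM (0.39 ± 0.037, adjusted p = 0.000261). None of the 3 overlapped between the lines. The ratio of Birc5 to Incenp overlapped (exact permutation p = 0.7), and that of Cdca8 to Incenp was 1.04 ± 0.008 in the parental samples and 1.09 ± 0.005 in M8 (exact permutation p = 0.1, adjusted 0.24). The exons of Cdca8 overlap those of 9930104L06Rik on the opposite strand.

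**Figure D3:**
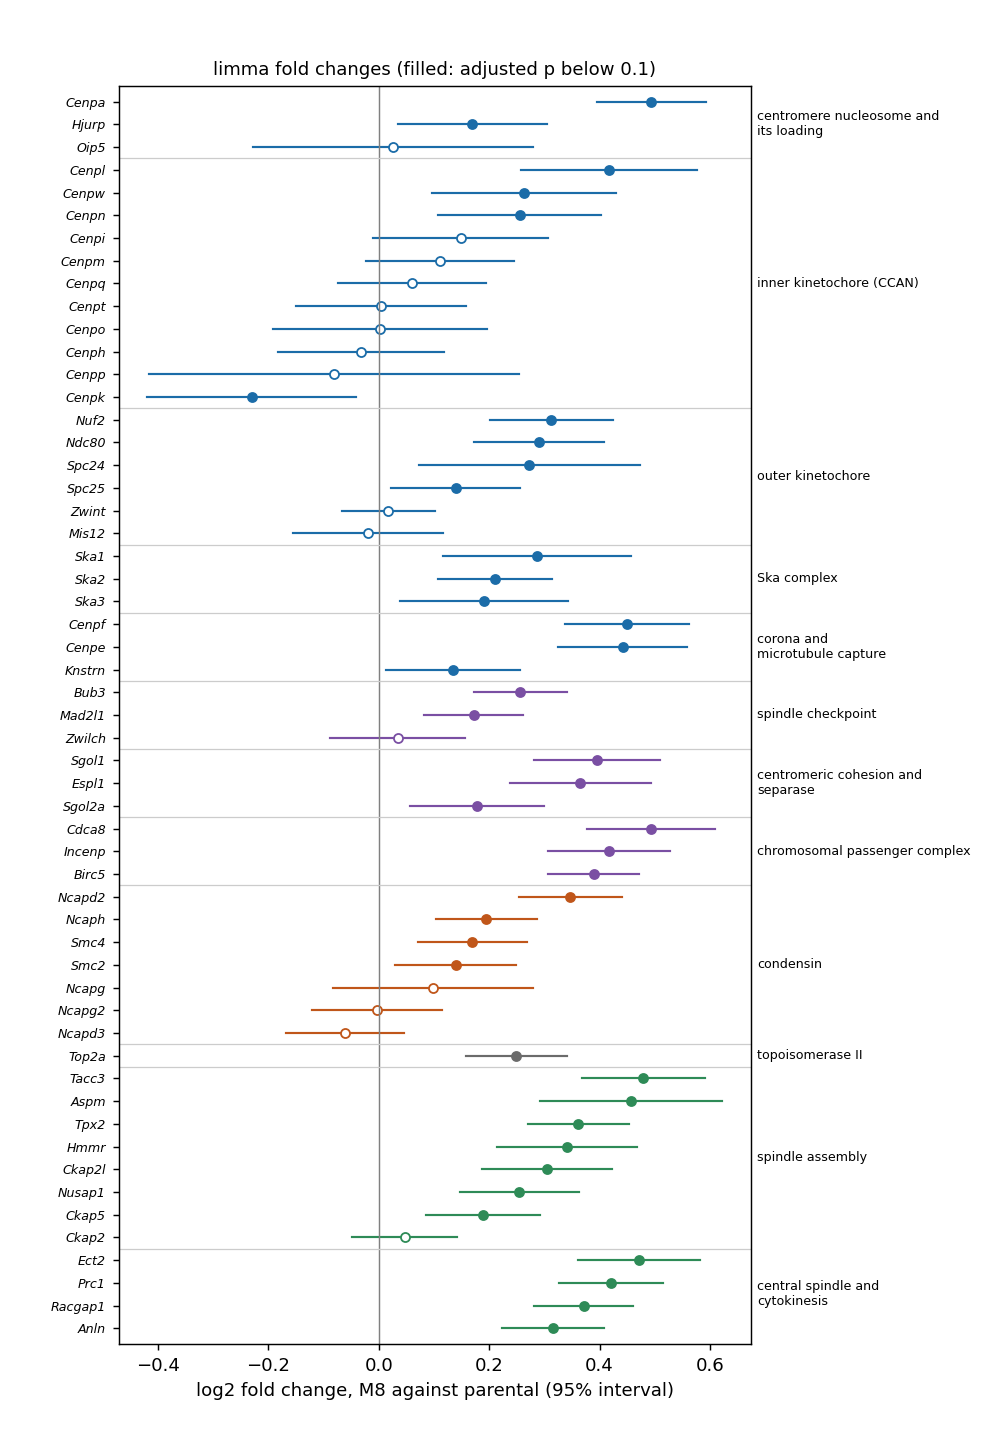
Log2 fold change of M8 against parental with its 95% interval from limma (horizontal axis) for the 55 genes (rows) by role; filled symbols passed an adjusted p of 0.1 and colors mark the classes. The intervals of most spindle and passenger complex genes exclude 0, whereas those of 7 of the 11 inner kinetochore genes include it.

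Condensin exists as complexes I and II, which share Smc2 and Smc4 and differ in 3 other subunits. The shared subunits were slightly higher in M8, but neither was called after quantile normalization. Smc4 was at 67.6, 67.1 and 64.4 FPKM in the parental samples and at 74.6, 71.9 and 77.9 FPKM in M8 (log2 fold change 0.17, adjusted p = 0.0193), and its log2 fold change after quantile normalization was 0.087 (adjusted p = 0.213). Smc2 was at 22.5, 21.4 and 20.3 FPKM against 23.8, 23.6 and 23.7 FPKM (0.14, adjusted p = 0.0592), a call that was lost without parental replicate 2 or 3 or any of the M8 replicates (adjusted p = 0.12 to 0.144) and after quantile normalization (0.11, adjusted p = 0.133). The ratio of Smc4 to Smc2 overlapped between the lines (exact permutation p = 0.5).

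Of the condensin I subunits, Ncapd2 had the largest difference, from 35.5, 36.4 and 34.6 FPKM to 44.5, 46.4 and 45.4 FPKM (log2 fold change 0.35 ± 0.042, adjusted p = 0.000737). Ncaph, the kleisin that closes the ring, was at 31.3, 32.1 and 31.4 FPKM against 37.2, 35.8 and 36.0 FPKM (0.19 ± 0.041, adjusted p = 0.00771). Neither gene overlapped between the lines. Ncapg was not called, with 27.5, 29.2 and 23.1 FPKM against 28.3, 26.8 and 30.2 FPKM (0.10, 95% interval -0.084 to 0.28). Of the condensin II subunits, Ncapd3 was at 13.9, 14.0 and 13.6 FPKM in the parental samples and at 13.4, 12.9 and 13.4 FPKM in M8. Every M8 value lay below every parental value, but the difference was not called (-0.06, adjusted p = 0.36, 95% interval -0.17 to 0.045). Ncapg2 overlapped fully, at 13.4 ± 0.64 and 13.3 ± 0.26 FPKM (-0.0038, 95% interval -0.12 to 0.11). Ncaph2, which is not among the 55, was at 93.0, 106.6 and 103.5 FPKM against 109.5, 110.9 and 111.6 FPKM (0.13, adjusted p = 0.086).

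The ratio of Ncapd2 to its condensin II counterpart Ncapd3 was 2.55, 2.61 and 2.54 in the parental samples and 3.33, 3.61 and 3.38 in M8. These values did not overlap, and the exact permutation p was 0.1, the smallest possible (0.24 adjusted over the 12 ratios). The ratio of Ncapg to Ncapg2 was 1.98 ± 0.17 and 2.13 ± 0.09, and that of Ncaph to Ncaph2 was 0.314 ± 0.02 and 0.328 ± 0.0097, and both overlapped (exact permutation p = 0.3 for each). Ncapd2, Smc2 and Ncapg were the condensin genes with both promoter elements, and Ncapg was not called. The exons of Ncapd2 overlap the small RNA gene Scarna10 on the same strand, and those of Ncapg overlap Lcorl on the opposite strand.

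**Figure D4:**
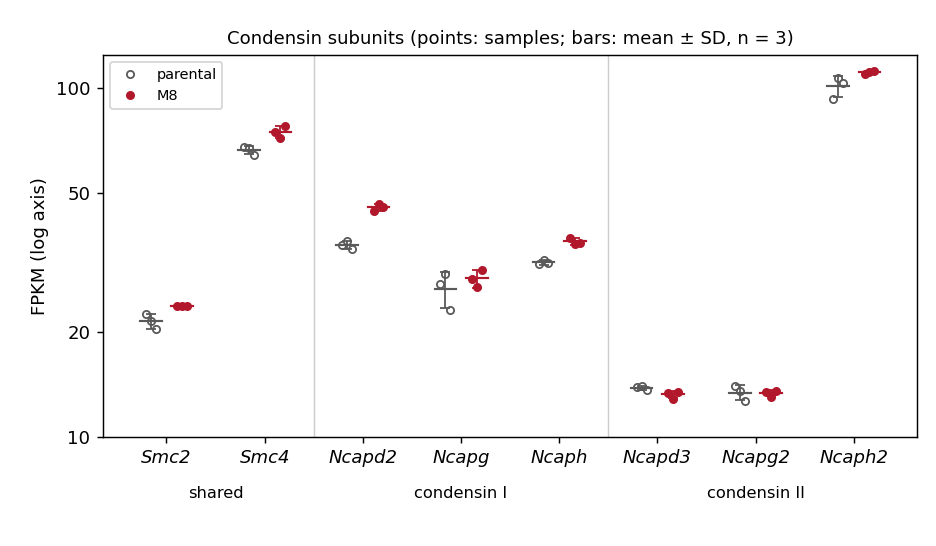
FPKM (log axis) of the 2 shared, 3 condensin I and 3 condensin II subunits in each sample, with the mean and SD of the 3 samples per line; open circles are parental and filled circles are M8. Smc2, Smc4, Ncapd2, Ncaph and Ncaph2 are higher in each M8 sample than in every parental sample, whereas Ncapg and Ncapg2 overlap and Ncapd3 is lower in each M8 sample than in every parental sample.

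Top2a, the topoisomerase that untangles sister chromatids, was expressed at 79.0, 84.7 and 80.6 FPKM in the parental samples and at 99.0, 96.2 and 95.8 FPKM in M8. Its log2 fold change was 0.25 ± 0.041 (adjusted p = 0.00274), with no overlap between the lines. Its paralog Top2b, which is not a cell cycle gene and was named after its values were seen, was lower in M8 (-0.13, adjusted p = 0.038).

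Of the 8 spindle assembly genes, 7 were higher in M8 and Ckap2 was not called. Tacc3, which bundles the fibers that end in kinetochores, was at 40.6, 45.6 and 42.6 FPKM in the parental samples and at 59.5, 61.6 and 59.3 FPKM in M8 (log2 fold change 0.48 ± 0.049, adjusted p = 0.000361). Its microtubule polymerase partner Ckap5 rose from 37.7 ± 1.87 to 43.1 ± 0.28 FPKM (0.19, adjusted p = 0.0152), a call lost after quantile normalization (0.12, adjusted p = 0.108). Aspm, which focuses the spindle poles, was at 7.83, 7.85 and 6.58 FPKM against 11.1, 10.1 and 10.5 FPKM (0.46 ± 0.074, adjusted p = 0.00251). Tpx2, the activator of Aurora A, and Hmmr, its partner at the poles, had log2 fold changes of 0.36 (adjusted p = 0.000563) and 0.34 (adjusted p = 0.00286). Ckap2l and Nusap1, both microtubule-binding spindle proteins, were at 0.30 (adjusted p = 0.00329) and 0.25 (adjusted p = 0.00486). Ckap2, the paralog of Ckap2l, overlapped between the lines at 35.4, 33.8 and 35.4 FPKM and 36.6, 35.2 and 36.3 FPKM (0.047, 95% interval -0.048 to 0.14). The exons of Tacc3 overlap those of Tmem129 on the opposite strand.

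The 4 genes of the central spindle and cytokinesis were higher in M8 without overlap between the lines. Ect2, the exchange factor that activates RhoA at the cell equator, was at 30.6, 31.0 and 28.6 FPKM in the parental samples and at 41.9, 43.8 and 40.4 FPKM in M8 (log2 fold change 0.47 ± 0.049, adjusted p = 0.00039). Prc1, which crosslinks the midzone microtubules, was at 51.9, 56.3 and 54.4 FPKM against 72.2, 73.1 and 73.3 FPKM (0.42 ± 0.042, adjusted p = 0.000311). Racgap1, which recruits Ect2 as part of centralspindlin, was at 125, 134 and 129 FPKM against 168, 169.6 and 165 FPKM (0.37 ± 0.04, adjusted p = 0.000459). Kif23, the kinesin subunit of centralspindlin and not one of the 55, had a log2 fold change of 0.38 (adjusted p = 0.000693, named after its values were seen). Anln, the anillin scaffold of the contractile ring, rose from 69.2 ± 2.18 to 86.4 ± 2.15 FPKM (0.32, adjusted p = 0.00102). The exons of Prc1 overlap those of Rccd1 on the opposite strand.

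Genes of the same machinery outside the 55 were counted as well. Of 20 other kinetochore genes, 8 were higher and none was lower, with a median log2 fold change of 0.12 and values from -0.19 (Itgb3bp, adjusted p = 0.255) to 0.38 (Pmf1). Of 28 other spindle and cytokinesis genes, 11 were higher and 2 were lower, with a median of 0.10. They ranged from -0.18 (Tacc1, adjusted p = 0.171) to 0.48 (Fam64a, adjusted p = 0.000189). The list of 15 condensin II and cohesin genes also held Top2b. In it 5 genes were higher and 3 were lower (Stag2, Esco2 and Top2b), with a median of 0.037. Values ranged from -0.23 (Esco2, adjusted p = 0.0485) to 0.26 (Cdca5, adjusted p = 0.0172). Both end genes of the last list act in cohesion, Esco2 as an acetyltransferase of cohesin and Cdca5 as sororin. Over the 63 genes, 38.1% were higher in M8, compared with 70.9% of the 55 and 21.2% of all genes tested, and these shares were not tested against each other.

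DNA replication genes are expressed earlier in the cell cycle. Of 39 such genes, 10 were higher (25.6%, against 21.2% of all genes tested) and 3 were lower (7.69%, against 16.5%), with a median log2 fold change of 0.047 and values from -0.21 (Prim1, adjusted p = 0.0443) to 0.30 (Orc2, adjusted p = 0.00489). Of 22 regulators of late cell cycle transcription, 7 were higher (31.8%, against 21.2% of all genes tested) and 5 were lower (22.7%, against 16.5%). Their median log2 fold change was -0.0088. Foxm1, a forkhead activator of mitotic genes, had the largest value (0.51, adjusted p = 0.000163), and Rb1, the retinoblastoma repressor, had the smallest (-0.41, adjusted p = 0.00187). Whether these differences contribute to those of the 55 genes was not tested.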

How the data were processed

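RNA from 3 parental and 3 M8 samples was sequenced as stranded single-end mRNA libraries. The authors aligned them to mm10 with TopHat, calculated FPKM values with Cufflinks 2.2.1 and deposited 1 table per sample. The processing notes name TopHat2 2.1.1, Bowtie2 2.2.8, SAMtools 0.1.18 and Cuffdiff 2.2.1. The annotation, the strand setting and filters are not given in the sources used here, so reads of the 21 members whose exons overlap another gene in GENCODE M21 (3 on the same strand) may not be fully separated. Members not called higher whose exons overlap an opposite-strand protein-coding gene were Cenpk, Cenpo, Cenpp, Cenpq, Cenpt, Mis12, Ncapg, Oip5 and Zwilch. Among members called higher, such an overlap was found for Cdca8, Nusap1, Prc1, Sgol2a, Ska3 and Tacc3. FPKM values were used as deposited, and no samples were left out.

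The 10597 genes whose mean FPKM reached 1 were tested with limma 3.58.1 in R 4.3.3 on log2(FPKM + 1), with lmFit and eBayes with a trend, two-sided, with Benjamini-Hochberg adjustment and a threshold of 0.1. Fold changes are on this scale, which understates those of low genes. All 55 members passed the filter. The study calls the samples biological replicates, but the labels do not say that they came from separate cultures, so p-values measure the spread between these samples. Exact permutation tests over the samples were two-sided. Depth was estimated from the FPKM steps of low genes and 762 single-transcript genes. The members had at least 116 reads per sample (Cenpp, a counting error of 9.28%), and the median coefficient of variation was 4.29% in parental samples and 3.74% in M8. The fit was also run on data simulated with independent noise in each gene, which cannot show whether the samples are true replicates.

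The members and gene lists were chosen with earlier results of these data known. Named genes were, in each role group and each related or reference list, the genes with the largest and smallest log2 fold change, the members called lower or not called, and all condensin subunits. Other members are also given to complete each complex. Figures were drawn with matplotlib 3.10.9, and promoters were searched in Python 3.11.15. The alternatives were other pseudocounts, filters, scalings and thresholds, eBayes without a trend, a replicate block, and leaving out each replicate in turn.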

Additional observations from a re-analysis of the deposited data

How the results depend on the processing

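Of the 39 members called higher, 29 passed the test under all 17 alternatives, and Ckap5, Hjurp, Knstrn, Mad2l1, Sgol2a, Ska3, Smc2, Smc4, Spc24 and Spc25 missed it under at least 1. No log2 fold change of a called member reversed. The number of members called higher was 33 with TPM and with quantile normalization, 35 without a filter, 34 at an adjusted p below 0.05, and 32 to 37 when 1 replicate was left out. For kinetochore genes it was 11 with TPM, without a filter and at an adjusted p below 0.05, and 10 to 13 when 1 replicate was left out. The number called lower was 0 without a filter and at an adjusted p below 0.05, and 0 to 1 when 1 replicate was left out. Under quantile normalization 2 condensin genes were called higher, and Ckap5, Knstrn, Mad2l1, Smc2, Smc4 and Spc25 lost their calls (adjusted p = 0.106 to 0.337). With TPM, Hjurp, Knstrn, Sgol2a, Ska3, Smc2 and Spc25 lost theirs (adjusted p = 0.123 to 0.249). For the members, the median log2 fold change came to 0.2124 with TPM, 0.2221 with upper-quartile scaling, 0.2114 with quantile normalization and 0.2047 to 0.2546 with 1 replicate left out. That of kinetochore genes was 0.1758 with a pseudocount of 0.1, 0.1253 with TPM, 0.1341 with upper-quartile scaling, 0.1771 with quantile normalization and 0.1516 to 0.179 with 1 replicate left out. Under quantile normalization the median was 0.08721 for condensin genes and 0.2754 for spindle genes. When 1 replicate was left out, 1 to 5 of the related genes and 1157 to 1672 of all genes were called lower. The causes of these shifts were not tested. Same-numbered samples showed no shared deviation (r = 0.10, -0.11 and -0.03, against -0.13 to 0.18 for the other pairs). With 3 samples per line, this cannot exclude a pairing by number. With the replicate block 38 members were called higher and 1 lower, and Knstrn lost its call (adjusted p = 0.114). The fewest reads in a sample were 116 for Cenpp, 126 for Oip5 and 169 for Cenpk, with counting errors of 9.28%, 8.91% and 7.7%, which limits what these genes can show.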
